A study of Homo sapiens with 6 samples.

Results

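The 35 genes described here encode the enzymes that make purine nucleotides, pyrimidine nucleotides and deoxynucleotides in human cells, and the salvage and nucleotide kinases that join them. The rule takes them by name and reaction, was drawn up with earlier results of these data known, and uses no measured value; all 35 were found among the 60668 genes of the deposited table. The cells were MiaPaCa-2, an established human pancreatic cancer line from ATCC and hence a model of 1 line. They were kept for 48 h in low glucose (2.5 mM, 3 libraries) or in control medium (25 mM, 3 libraries). No drug, transgene or gene deletion is named in the labels of these samples. In the labels the treatment text reads 2.5 mM for every sample, controls included, and the controls are told apart by title and by the design text.

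The sequencing depth was 9741183 to 10190154 reads in the control libraries and 10595408 to 13733477 reads in the low-glucose libraries, and a member had between 21 and 4852 reads in a library. Values are normalized counts, that is, reads on a gene divided by 1 size factor for each library. In the sentences that follow, control values are listed in the order of increasing depth (9741183, 10126218 and 10190154 reads). Low-glucose values are listed as replicate 1, replicate 2 and the library of 13733477 reads. Only the columns of replicates 1 and 2 of low glucose are named in the labels, and the other 4 were assigned to their condition by the run of their names. The keratins KRT8, KRT18 and KRT19 and VIM were abundant in the 6 libraries, and they moved with the condition: KRT8, KRT18 and KRT19 fell (log2 fold changes -1.01, -0.74 and -0.83) and VIM rose (0.42, not past the threshold with quantile normalization). In contrast, the epithelial markers EPCAM and CDH1 had at most 1 and 3 reads. The other mesenchymal markers listed were low as well, with 0 reads for CDH2 and 6 to 47 for FN1. The acinar markers PRSS1, CPA1 and CELA3A had 0 reads and CEL 16 to 69, and the leukocyte markers PTPRC and CD3E had 0 reads and CD68 at most 15. Of the fibroblast markers DCN had 0 reads, COL1A1 3 to 14 and PDGFRB at most 9. COL1A2 had a mean of 2755 normalized counts in control and 1924 in low glucose. Of the endothelial markers, CDH5 had a mean of 173 normalized counts in control and 10.5 in low glucose, and the 3 listed markers summed to between 157 and 192 in control libraries and between 9.88 and 12.1 in low-glucose libraries; their part in the results was not tested.

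Cells build purines on phosphoribosyl pyrophosphate (PRPP), adding the ring atoms in a chain of reactions that ends at inosine monophosphate (IMP), from which AMP and GMP are made. Pyrimidines are made as a free ring that is joined to PRPP late, giving UMP and then CTP. Ribonucleotide reductase turns ribonucleotides into the deoxynucleotides needed for DNA. Several genes of that last branch are known to be expressed mainly in S phase, whereas salvage kinases reuse nucleosides made by breakdown or taken up from outside.

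In low glucose 16 of the 35 members fell, 1 rose and 18 did not pass the threshold (limma on log2(normalized count + 1), adjusted p under 0.05 over 21101 genes). Of all genes tested, 30.9% passed, 16.2% as lower and 14.7% as higher. The members were more abundant than most genes: 32 of them had a mean of at least 100 normalized counts, 16 of these fell, and among all 10149 genes at that level 30.0% fell. The median log2 fold change was -0.21 over the members, 0.05 over all genes tested and -0.08 over those at 100 or more. In 20 members every low-glucose value was below every control value, and in 2 members every low-glucose value was above. Groups did not overlap in 43.9% of all genes, and 21.8% of all genes were separated with low glucose lower. These shares were larger among abundant genes. Of the 10149 genes at 100 or more, 3745 were separated with low glucose lower, 2340 with low glucose higher, and 4871 passed. For the 32 members at that level the counts were 20, 2 and 17. The split of calls over all genes depended on scaling, with 3111 higher and 3417 lower as reported and 3933 higher and 2646 lower when libraries were scaled by total reads. By total reads the members' median was -0.13, and 14 of them passed. In bulk RNA, fewer cells in a phase that uses these genes and less RNA per cell cannot be told apart.

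The deoxynucleotide genes had the lowest median log2 fold change, -0.53, with 5 of 9 lower. The pyrimidine de novo genes had a median of -0.31 with 3 of 5 lower, and the genes from IMP to AMP and GMP had -0.25 with 3 of 5 lower. The 5 nucleoside kinases had a median of -0.15, with 2 lower and 1 higher. The 6 purine ring genes had a median of -0.14 with 2 lower, the 3 nucleotide kinases had -0.11 with 1 lower, and the 2 purine salvage genes had -0.18 with 0 past the threshold. The differences between steps were not tested.

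**Figure D1:**
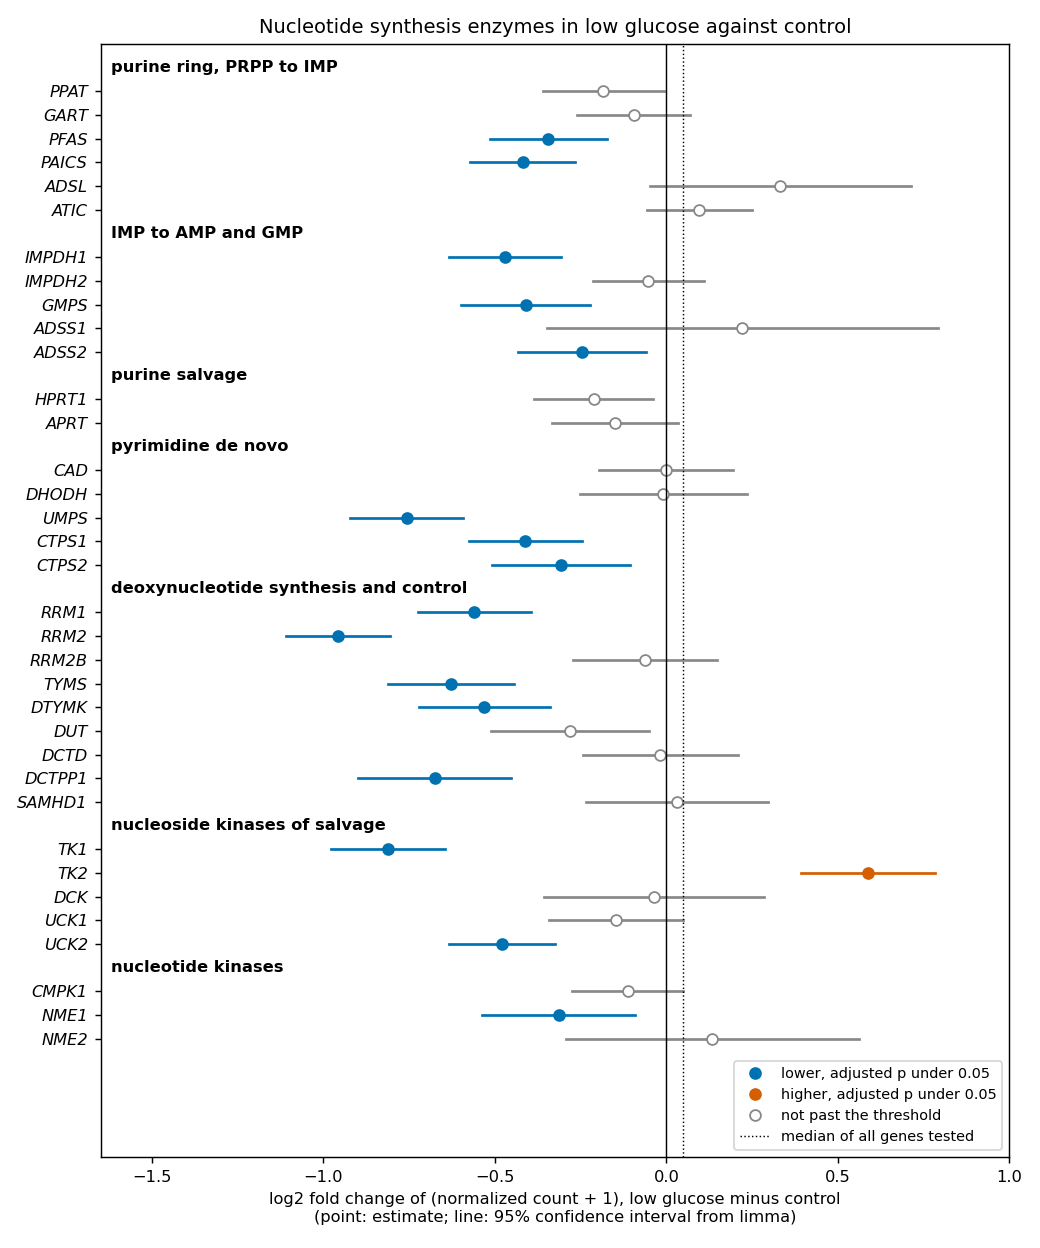
Log2 fold change of (normalized count + 1), low glucose minus control, for the 35 members grouped by step (x axis). Points are estimates and lines the 95% confidence intervals from limma (3 libraries a group). Filled blue points fell, the filled orange point rose and open grey points did not pass adjusted p under 0.05; RRM2 (-0.96) lies farthest to the left and TK2 (0.59) farthest to the right.

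The deoxynucleotide branch held the largest fall. RRM2, the small subunit of ribonucleotide reductase whose supply is tied to S phase, had 4921, 4763 and 4827 normalized counts in the control libraries and 2423, 2465 and 2585 in the low-glucose libraries. The low-glucose values lay near the middle of the scale from zero to control and did not overlap it, with a log2 fold change of -0.96 ± 0.071 (SE, n = 3 per group, limma adjusted p = 3.35e-07). RRM1, the large catalytic subunit of the same enzyme, had 1555, 1652 and 1465 in control and 1024, 1049 and 1092 in low glucose. It fell with a log2 fold change of -0.56 ± 0.077 (limma adjusted p = 8.17e-05), and its 95% confidence interval (-0.72 to -0.39) did not overlap that of RRM2 (-1.11 to -0.81). RRM2B, the alternative small subunit that p53 can induce and that serves resting cells, had 283, 291 and 286 in control and 279, 288 and 256 in low glucose. These groups overlapped and the log2 fold change was -0.062 (95% confidence interval -0.27 to 0.15, adjusted p = 0.678).

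TYMS, thymidylate synthase, makes dTMP from dUMP and is the committed step to thymidine nucleotides. Its values were 2909, 2546 and 3181 in control and 1801, 1846 and 1922 in low glucose, with no overlap. The log2 fold change was -0.63 ± 0.086 (limma adjusted p = 7.75e-05). Exons of TYMS share 967 bases with ENOSF1 and 193 with TYMSOS on the other strand. The libraries mark strand, but the strand setting of the counting was not given in the sources used here. ENOSF1 had a log2 fold change of -0.25 and TYMSOS of -0.62, and their part in the value of TYMS was not tested.

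DTYMK, the kinase that phosphorylates dTMP, had 908, 821 and 1004 in control and 632, 649 and 605 in low glucose, which gave a log2 fold change of -0.53 ± 0.089 (limma adjusted p = 0.000403). DCTPP1, a pyrophosphatase that clears dCTP and modified dCTP from the pool, had 867, 813 and 1089 in control and 583, 540.3 and 596 in low glucose. Both genes fell without overlap, and DCTPP1 had a log2 fold change of -0.68 ± 0.10 (limma adjusted p = 0.000205). DCTPP1 shares 645 exon bases with ZNF771 on the other strand, which had a log2 fold change of -0.30. TYMS, DTYMK, DCTPP1, DUT and DCTD all had their lowest control value in the library of 10126218 reads and their highest in the library of 10190154 reads. This order was not particular to the branch. Within it RRM1 and SAMHD1 had the reverse order, and RRM2 and RRM2B had neither. HPRT1 and NME2, members outside the branch, had the same order as TYMS.

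The remaining deoxynucleotide members did not pass the threshold. DUT, which removes dUTP and supplies dUMP to TYMS, had a log2 fold change of -0.28 (adjusted p = 0.0611), and its groups overlapped at the control value of 523. DUT passed in 1 of 15 alternative settings, without that control library, of 10126218 reads (log2 fold change -0.40, limma adjusted p = 0.00033). In that setting 3510 genes passed as higher and 3741 as lower, against 3111 and 3417 as reported. DCTD, which deaminates dCMP to dUMP, had -0.018 (95% confidence interval -0.24 to 0.21). SAMHD1, a phosphohydrolase that degrades deoxynucleoside triphosphates, had 0.031 (95% confidence interval -0.23 to 0.30). On the other strand DUT shares 533 exon bases with DUT-AS1, which had 129 to 206 reads in a library. SAMHD1 shares 1068 on the other strand with TLDC2, which had 45 to 74 reads. The part of these genes in the values was not tested.

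Promoter sequences of members that fell most are shown because their starts were searched for motifs of cell cycle and growth regulators. Windows from 250 bases before to 50 bases after the RefSeq start were given for 32 of the 35 members. Each line gives 30 bases, 5′ to 3′ on the strand of the gene, with the match in capitals (RefSeq sequence, GRCh38.p14).
TYMS, E2F pattern, chr18:657603-657632, plus strand: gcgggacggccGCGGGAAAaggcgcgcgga
RRM2, CCAAT box, chr2:10122634-10122663, plus strand: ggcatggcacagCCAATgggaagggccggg
RRM1, CCAAT box, chr11:4094645-4094674, plus strand: gcatgtccatatCCAATggggcccatggga
TK1, CCAAT box on the other strand, chr17:78187081-78187110, minus strand: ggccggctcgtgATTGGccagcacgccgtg
DCTPP1, E-box, chr16:30429792-30429821, minus strand: ggagggttcctcCACGTGgtcgggaagcgg
UMPS, CHR, chr3:124730433-124730462, plus strand: ggcgcctgggaaTTTGAAgcaaacaggcag
The TYMS match begins 39 bases before the start. RRM2 held 3 CCAAT boxes within 1 window, beginning 123, 93 and 66 bases before the start, of which the middle one is printed. The stretches of TYMS and RRM1 lie outside the Gencode exons of their genes, and the other 4 lie within Gencode exons of their genes, since some transcripts begin farther upstream.

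Both strands were searched, so that GCGGGAAA is a match of TTTCCCGC and ATTGG of CCAAT, and no match in a member overlapped one of another motif. E2F patterns (TTTGGCGC, TTTCGCGC, TTTCCCGC or TTTGCCGC) were found in 4 members with a window (12.5%) against 3.99% of 27305 genes, namely TYMS, DUT, DCK and GART. An E-box (CACGTG), the site of MYC and its partners, was found in 7 members (21.9%) against 8.78% of genes. A CCAAT box (CCAAT) was found in 10 members (31.2%) against 39.7%, and a CHR (TTTGAA), an element of late cell cycle genes, in 4 (12.5%) against 18.2%. The NRF1 core (GCATGCGC) was found in 2 members (6.25%) against 3.68%. Among the 16 members that fell, 1 held an E2F pattern, 3 an E-box, 6 a CCAAT box and 3 a CHR; among the 16 other members with a window the counts were 3, 4, 4 and 1. DHODH, whose values did not differ detectably, held a CCAAT box of the same kind (chr16:72008710-72008739, plus strand): ccaccatctcctCCAATggaagggagacag. A gene counted once if any of its windows held a match. The 32 members had 48 windows and the 27305 genes had 35116. The shares were therefore matched neither for bases searched nor for abundance. These matches describe the letters of the windows only.

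In the pyrimidine de novo pathway the 3 genes that fell, UMPS, CTPS1 and CTPS2, encode the later enzymes. CAD, the large protein that carries out the first reactions of the pathway and its committed step, had 3068, 3806 and 2965 normalized counts in control and 3222, 3268 and 3277 in low glucose. The low-glucose values lay within the control range, and the log2 fold change was -0.0016 (95% confidence interval -0.20 to 0.19, limma adjusted p = 0.992). This interval does not reach the log2 fold change of UMPS, -0.76. DHODH, the mitochondrial enzyme that oxidizes dihydroorotate, had a log2 fold change of -0.009 (95% confidence interval -0.25 to 0.23).

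UMPS, which joins orotate to PRPP and decarboxylates the product to UMP, had 1069, 1111 and 1071 in control and 669, 623 and 630.4 in low glucose. The groups were far apart compared with their spread, with a log2 fold change of -0.76 ± 0.077 (limma adjusted p = 5.77e-06). CTPS1 and CTPS2 encode CTP synthases, which aminate UTP to CTP. CTPS1 had 1510.0, 1518 and 1481 in control and 1074, 1216 and 1104 in low glucose (log2 fold change -0.41 ± 0.077, limma adjusted p = 0.00094). CTPS2 had 349.8, 323 and 329.5 in control and 271, 269.7 and 268 in low glucose (log2 fold change -0.31 ± 0.095, limma adjusted p = 0.0229). Both CTP synthase genes were lower without overlap, but the call of CTPS2 was lost in 7 of 15 alternative settings.

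In the purine ring pathway PFAS and PAICS fell and the other 4 genes did not pass the threshold. PPAT, which transfers an amino group to PRPP and commits it to purines, had 708, 639.8 and 638 in control and 576, 586 and 584 in low glucose. The groups did not overlap, but the log2 fold change of -0.18 ± 0.083 did not pass the threshold (limma adjusted p = 0.108). PPAT passed in 1 of 15 alternative settings, without the control library of 10126218 reads (limma adjusted p = 0.0464). PFAS and PAICS, which act in the middle of the chain, fell with log2 fold changes of -0.34 and -0.42 (limma adjusted p = 0.00425 and 0.000472). Mean PAICS was 3297 ± 83.1 in control and 2466 ± 89.8 in low glucose (SD, n = 3). GART, a trifunctional enzyme of the same chain, had -0.096 (95% confidence interval -0.26 to 0.068), and ATIC, which closes the ring to IMP, had 0.096 (95% confidence interval -0.058 to 0.25). ADSL, adenylosuccinate lyase, had only 65.5 ± 11.3 normalized counts in control and 82.0 ± 6.28 in low glucose, and its log2 fold change of 0.33 did not pass (adjusted p = 0.177). ADSL shares 1344 exon bases on its own strand with the gene ENSG00000284431, so its low value is uncertain.

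PPAT and PAICS are transcribed away from each other on chromosome 4, and the stretch between their RefSeq starts is shown because 1 of these genes passed the threshold and the other did not. It spans 136 bases, is printed on the plus strand with the PPAT start just before it and the PAICS start just after it, and holds none of the motifs searched (RefSeq sequence, GRCh38.p14).
PPAT to PAICS, chr4:56435616-56435751: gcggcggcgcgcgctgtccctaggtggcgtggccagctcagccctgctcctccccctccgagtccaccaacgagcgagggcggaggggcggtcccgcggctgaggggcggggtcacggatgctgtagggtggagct
E-box near the PAICS start, chr4:56435780-56435809, minus strand: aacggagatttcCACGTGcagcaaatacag
This E-box lies in the windows of both genes and therefore counts for both among the 7 members with an E-box. It begins 182 bases before the PPAT start and 40 bases after the PAICS start. PPAT had -0.18 (95% confidence interval -0.36 to -0.0068) and PAICS -0.42 (95% confidence interval -0.57 to -0.27) as log2 fold changes, and these intervals overlap.

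From IMP onwards, IMPDH1 and GMPS fell on the branch to GMP. IMPDH1 and IMPDH2 encode IMP dehydrogenases, the limiting step of GMP synthesis. IMPDH1 had 1890.1, 2119 and 1873 in control and 1440.0, 1373 and 1425 in low glucose (log2 fold change -0.47 ± 0.077, limma adjusted p = 0.000321). IMPDH2 had 2462, 2773 and 2447 in control and 2435, 2535 and 2427 in low glucose (log2 fold change -0.052, 95% confidence interval -0.22 to 0.11). IMPDH1 was lower without overlap, whereas the groups of IMPDH2 overlapped. IMPDH2 shares 132 exon bases with ENSG00000272434 on the other strand, which had 252 to 465 reads in a library. On its own strand it shares 1680 with ENSG00000290315, a gene without deposited values. The part of that gene in the count of IMPDH2 was not tested. GMPS, which aminates XMP to GMP, fell from 2996 ± 344 to 2245 ± 92.9 (SD, n = 3; log2 fold change -0.41, limma adjusted p = 0.0025). IMPDH1 passed in all 15 alternative settings and GMPS in 14.

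On the branch to AMP, adenylosuccinate synthase has a muscle form, ADSS1, and a general form, ADSS2. ADSS1 was near the bottom of the members, with 37.0, 23.4 and 30.0 in control and 43.3, 27.7 and 34.9 in low glucose, and the groups overlapped (log2 fold change 0.22, adjusted p = 0.577). ADSS2 had 897, 906 and 1022 in control and 856, 742 and 783 in low glucose (log2 fold change -0.25 ± 0.087, limma adjusted p = 0.0435). The ADSS2 groups did not overlap, but its call was lost in 13 of 15 alternative settings. Of the purine salvage enzymes, which return free bases to nucleotides, HPRT1 had a log2 fold change of -0.21 (limma adjusted p = 0.0601) and APRT of -0.15 (limma adjusted p = 0.205). HPRT1 passed in 1 of 15 alternative settings, without the control library of 10126218 reads (limma adjusted p = 0.00383).

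The thymidine kinases TK1 and TK2 moved in opposite directions. TK1, the cytosolic thymidine kinase of S phase, had 1442, 1593 and 1631 normalized counts in control and 876, 897 and 880.5 in low glucose. It fell without overlap, with a log2 fold change of -0.81 ± 0.077 (limma adjusted p = 3.19e-06). TK2, the mitochondrial thymidine kinase that is not tied to the cell cycle, had 334, 343 and 352 in control and 559, 508 and 483 in low glucose. It was the 1 member that rose, with every low-glucose value above every control value and a log2 fold change of 0.59 ± 0.092 (limma adjusted p = 0.000224). TK2 shares 1106 and 511 exon bases with 2 genes on the other strand, which had 20 to 78 reads in a library, and 457 on its own strand with a gene that had at most 1 read.

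UCK1 and UCK2 encode uridine-cytidine kinases. UCK2 had 1549, 1563 and 1622 in control and 1158, 1118 and 1119 in low glucose (log2 fold change -0.48 ± 0.072, limma adjusted p = 0.000169). UCK1 had 339.7, 354 and 356 in control and 314, 318 and 317 in low glucose (log2 fold change -0.15, adjusted p = 0.246). Both were lower without overlap, and of the pair UCK2 passed the threshold. On the other strand UCK2 shares 413 exon bases with ENSG00000236364, which had 349 to 528 reads in a library, and 142 with TMCO1, which had a log2 fold change of -0.46. DCK, which phosphorylates deoxycytidine and several purine deoxynucleosides, had 162 ± 34.7 in control and 156 ± 6.70 in low glucose, a difference within the control spread (log2 fold change -0.037, adjusted p = 0.88). DCK shares 199 exon bases on its own strand with MOB1B.

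Among the nucleotide kinases, NME1 and NME2 encode the main nucleoside diphosphate kinases. NME1 had 799, 593 and 746 in control and 573, 558 and 574 in low glucose (log2 fold change -0.31 ± 0.10, limma adjusted p = 0.0327). NME2 had 61.7, 52.4 and 87.7 in control and 70.2, 76.1 and 70.5 in low glucose (log2 fold change 0.13, adjusted p = 0.658). NME1 was lower in every low-glucose library, though its call was lost in 8 of 15 alternative settings. NME1 and NME2 share 638 and 603 exon bases with the readthrough gene NME1-NME2, so their counts are uncertain. CMPK1, the UMP and CMP kinase, had -0.11 (95% confidence interval -0.27 to 0.049).

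**Figure D2:**
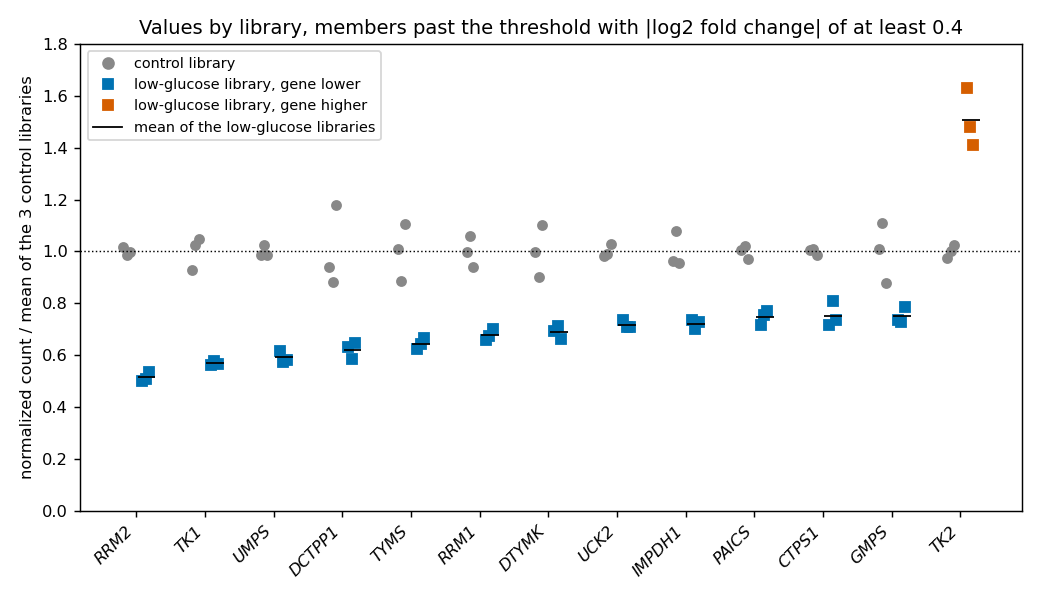
Normalized counts of each library relative to the control mean (y axis, linear from 0) for the 13 members past the threshold whose log2 fold change was 0.4 or more in size. Grey circles are control libraries, squares low-glucose libraries and black lines low-glucose means; the low-glucose squares lie below the control circles in every gene but TK2, where they lie above.

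Levels between genes were compared as normalized counts per kilobase of Gencode v44 exon, which depends on the exons counted in the gene model. For some members, among them PAICS, RRM2 and IMPDH2, the gene version in Gencode v44 differed from that of the deposited values. Levels and ratios between genes are therefore approximate. In control, TYMS was highest at 1189, followed by TK1 at 843, APRT at 654 and HPRT1 at 592. In low glucose TYMS was again highest at 767, followed by APRT at 589, ATIC at 587 and HPRT1 at 509.7, and TK1 stood at 479. The lowest in both conditions were ADSS1 (5.20 and 6.09) and ADSL (5.41 and 6.78).

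The ratio of paralogs in each library showed where partners did not move together. Per kilobase, the ratio of RRM2 to RRM2B was 9.95 ± 0.309 in control and 5.36 ± 0.505 in low glucose (SD, n = 3). The ratio of TK1 to TK2 was 25.4 ± 1.04 in control and 9.63 ± 0.747 in low glucose, the widest shift among the 7 pairs. IMPDH1 to IMPDH2 went from 1.16 ± 0.0028 to 0.865 ± 0.0416, a ratio that depends on the exon lengths of both gene models. UCK1 to UCK2 went from 0.577 ± 0.0111 to 0.727 ± 0.0196, and NME1 to NME2 from 7.99 ± 1.65 to 5.76 ± 0.346. CTPS1 to CTPS2 (2.08 ± 0.0878 and 1.94 ± 0.131) and ADSS1 to ADSS2 (0.0191 ± 0.00481 and 0.0262 ± 0.00395) overlapped between conditions. In the other 5 pairs the ratios did not overlap, and each gave p = 0.1 in a two-sided exact permutation test of the log2 ratio, the smallest value that 3 against 3 libraries allow, or 0.14 adjusted over the 7 pairs. The design cannot reach 0.05 with this test.

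**Figure D3:**
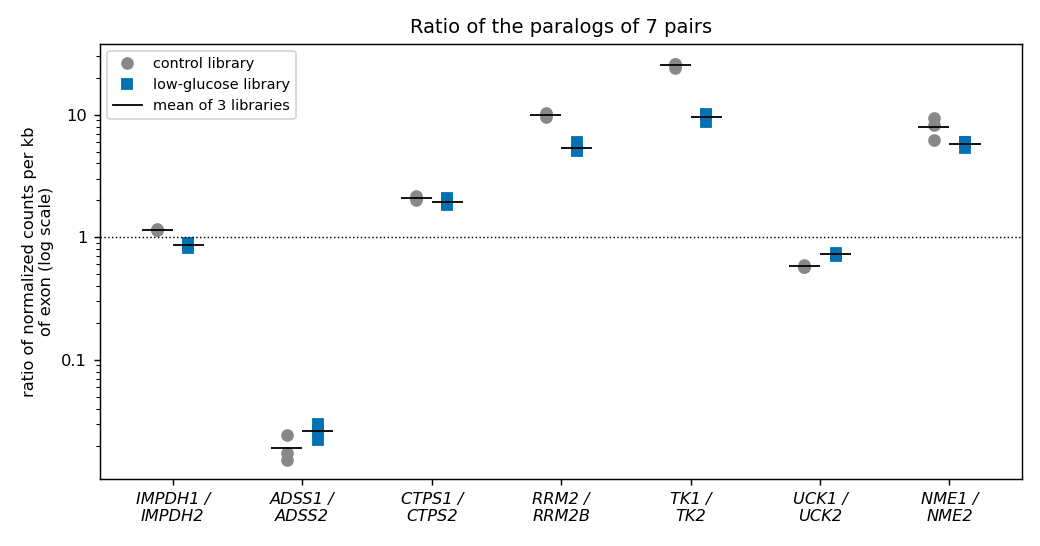
Ratio of the normalized counts per kilobase of exon of the 7 paralog pairs (y axis, log scale) in each control (grey circles) and low-glucose library (blue squares), with black lines at the means of 3 libraries. TK1 to TK2 (25.4 in control, 9.63 in low glucose) and RRM2 to RRM2B (9.95 and 5.36) drop most; the dotted line marks a ratio of 1.

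Genes that feed the pathway were counted from lists of other pathway genes. Of all genes tested, 14.7% passed as higher and 16.2% as lower, and no list was tested against these shares. Of the PRPP supply genes 2 of 4 tested fell and 0 rose, and both were the catalytic synthetases that make PRPP. PRPS2 had a log2 fold change of -0.95 ± 0.081 (limma adjusted p = 1.18e-06) and PRPS1 of -0.67 ± 0.091 (limma adjusted p = 7.21e-05). Of 12 one-carbon genes, which supply formyl and methyl groups, 4 rose and 4 fell. ALDH1L2 (2.82) and MTHFD2 (0.55), both mitochondrial folate enzymes, rose most, and MTHFD2L (-0.52) was among those that fell.

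Of 14 other nucleoside and nucleotide kinases 3 rose and 2 fell, and among those past the threshold adenylate kinase AK1 had a log2 fold change of 0.64, NME3 of 0.46 and AK4 of -0.49. Of 18 breakdown genes tested out of 24, 4 rose and 3 fell. UPP1, uridine phosphorylase, rose by 0.80 and the nucleotidase NT5C by 0.67, while DPYD, the first enzyme of pyrimidine breakdown, had -0.62 and NT5C3B -0.39. MTAP had 0 reads in the 6 libraries. Of 6 pool-cleansing hydrolases 2 rose and 3 fell, with NUDT18 (0.85) and ITPA (0.33) higher and NUDT5 (-0.31) lower; scaled by total reads, 2 passed as higher and 1 as lower. Of 7 nucleoside transporters 2 rose and 1 fell. The one that fell was SLC29A1, the main equilibrative transporter at the cell surface, from 1376 ± 129 to 785 ± 22.9 (log2 fold change -0.81, limma adjusted p = 7.57e-06), and SLC29A3 (0.67) and SLC29A2 (0.48) rose.

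Nearly all listed cell cycle genes fell, beside 5 of the 9 deoxynucleotide members and members of other steps such as TK1 and UMPS. Of 20 DNA replication genes 19 fell, with a median log2 fold change of -0.99, ORC1 (-1.48) and MCM4 (-1.24) lowest. All 15 genes of G2 and mitosis fell, with a median of -0.78, MKI67 (-1.58) and AURKA (-1.21) lowest. The replication genes summed to between 31946 and 33387 normalized counts in a control library and between 15772 and 16996 in a low-glucose library. The mitotic genes summed to between 38417 and 40190.0 in control libraries and between 20234 and 21630 in low-glucose libraries. Their part in the fall of the members was not tested.

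Of 15 MYC and E2F regulators 4 rose and 5 fell. MYC, which is known to activate many nucleotide synthesis genes, had a mean of 2942 ± 195 in control and 4019 ± 80.6 in low glucose and rose (log2 fold change 0.45, limma adjusted p = 0.000397). MXI1 (1.26) and MXD1 (1.18), which compete with MYC for its partner MAX, rose as well. E2F1, an activator of S phase genes, fell with a log2 fold change of -0.67, E2F2 with -1.67 and the repressor E2F8 with -1.29, and E2F7 had -0.37 (adjusted p = 0.0872). Of 14 genes listed as p53 targets 7 rose and 1 fell, with GDF15 (3.98) and SESN2 (1.55), which other stress pathways also induce, rising most and ZMAT3 (-0.45) falling. RRM2B, a p53 target among the members, did not pass, as given above.

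**Figure D4:**
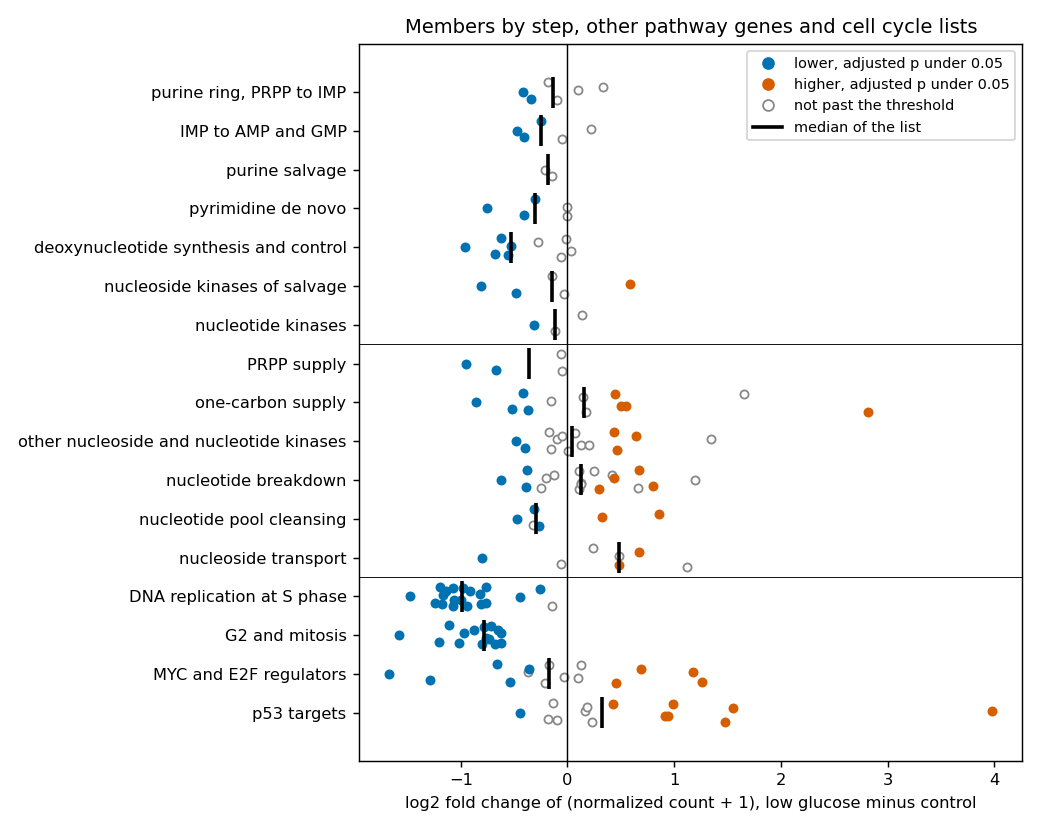
Log2 fold change, low glucose minus control (x axis), of each gene in the 7 groups of members, the 6 lists of other pathway genes and the 4 context lists; blue fell, orange rose, open grey did not pass adjusted p under 0.05, and black bars are list medians. The replication (median -0.99) and mitotic lists (-0.78) lie to the left of all 7 groups of members, of which the deoxynucleotide group (-0.53) is the lowest.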

How the data were processed

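RNA was extracted from MiaPaCa-2 cells after 48 h in 2.5 or 25 mM glucose, and strand-specific libraries were prepared (3 per condition, described as independent biological replicates). Per the submitters' processing notes, reads were mapped to hg38 with STAR 2.7.0e and DESeq2 was used; RSEM was among the study's listed software with no role stated, and the strand setting of the counting was not given in the sources used here. The deposited values are a signal: read counts over a library-wise size factor set by the authors. All values (100%) came out as whole reads within 0.01 reads, and the reads were recovered.

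For 21101 genes with a mean of at least 1, log2(value + 1) was tested with limma 3.58.1 (R 4.3.3; lmFit, eBayes with trend, two-sided, Benjamini-Hochberg over all genes, threshold 0.05), after a test on simulated data. Alternatives were library size, TMM and quantile scaling, no filter, a mean of at least 5, a pseudocount of 0.1, no variance trend, DESeq2 1.42.0 and edgeR 4.0.16 on the recovered reads, and each library left out. With edgeR, 6554 genes passed. The exact permutation test of the paralog ratios was added after values were seen. Gencode v44 gave gene models and RefSeq the promoter windows. Members and gene lists were chosen with earlier results of these data known. All members are given with a log2 fold change. Library values are given for members that passed and changed by at least 0.5 on the log2 scale, for 7 paralog pairs and for PPAT, CAD and TYMS. Of other lists, at most 2 genes that rose and 2 that fell most are named, with MYC, E2F1, E2F7 and E2F8 in any case. Some genes that this rule selects are not reported here.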

Additional observations from a re-analysis of the deposited data

How the results depend on the processing

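Of the 17 members that passed, 12 (PAICS, IMPDH1, UMPS, CTPS1, RRM1, RRM2, TYMS, DTYMK, DCTPP1, TK1, TK2 and UCK2) passed in the same direction in all 15 alternatives, and none of the 17 changed direction. ADSS2 lost its call in 13, NME1 in 8, CTPS2 in 7, PFAS in 2 (quantile normalization and no variance trend) and GMPS in 1 (no variance trend). The number of members past the threshold ranged from 12 to 20 over the 15 alternatives and from 14 to 20 when 1 library was left out, with 13 to 19 lower and 1 higher. Without a variance trend 4090 genes passed, against 4319 to 7251 when 1 library was left out; the lowest was without low-glucose replicate 1. With quantile normalization 2 members rose, TK2 and ATIC. No called gene of the other lists changed direction under the 3 other scalings. In an alternative chosen after seeing the data, of the 21 members with under 50 exon bases shared with another gene 10 passed, all lower; fewer genes were counted.

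The sign turned in 12 members, none past the threshold before or after, and the cause was not tested. Scaled by total reads, the log2 fold change was 0.028 for IMPDH2, 0.079 for CAD, 0.071 for DHODH, 0.018 for RRM2B, 0.063 for DCTD and 0.043 for DCK. With TMM factors it was 0.012 for CAD and 0.0043 for DHODH, and with edgeR 0.012 and 0.0073. With quantile normalization it was 0.11 for GART, 0.14 for IMPDH2, -0.035 for ADSS1, 0.012 for APRT, 0.17 for CAD, 0.11 for DCTD, 0.10 for CMPK1 and -0.032 for NME2. With 1 library left out it ranged from -0.096 to 0.20 for SAMHD1, -0.19 to 0.12 for DCK, -0.084 to 0.0062 for IMPDH2, -0.070 to 0.11 for CAD, -0.098 to 0.056 for DHODH, -0.027 to 0.34 for NME2 and -0.14 to 0.10 for DCTD.

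No paired analysis was possible because replicate numbers are known for only 2 of the 6 columns, both of low glucose. With 3 libraries per condition, and members such as ADSS1 with as few as 21 reads, small differences were not detectable. Transcript levels say nothing here of enzyme activity or nucleotide pools.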
